A study of Homo sapiens with 12 samples.

Results

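The genes described here are 49 genes of the endoplasmic reticulum (ER) chaperone network and the unfolded protein response, taken by gene name from a table of 58735 human genes. By role they comprised 10 sensors and transducers, 15 chaperones and co-chaperones, 11 disulfide and proline isomerases, 10 genes of ER-associated degradation (ERAD) and 3 genes of protein translocation and export. RNA had been sequenced from hCMEC/D3, a clonal, immortalised line of human brain microvascular endothelial cells that serves as a model of the blood-brain barrier in culture. Cells had been given SiNPs of 58 nm or SiNPs of 35 nm, both at 100 µg/mL for 24 h, or left untreated (Control), with 4 libraries in each of the 3 groups. SiNPs are taken here to be silica nanoparticles. The labels are silent on a vehicle for Control cells and on whether each library is a culture of its own. Every p-value below therefore reflects scatter among the libraries sequenced, and this scatter may be technical.

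Proteins that enter the secretory pathway fold in the ER, where chaperones of the HSP70 and HSP90 families, lectin chaperones that read sugar chains, and enzymes that form disulfide bonds or turn proline bonds act on them. When unfolded proteins accumulate, 3 sensors of the ER membrane respond: ERN1 (IRE1) splices the XBP1 messenger RNA, EIF2AK3 (PERK) slows translation and favours that of ATF4, and ATF6 is cut in the Golgi to free a transcription factor. ATF6 and spliced XBP1 switch on chaperone and ERAD genes through elements in their promoters. Splicing, cleavage and phosphorylation were not measured here, since the table gives 1 value per gene.

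Values are deposited FPKM (fragments counted per kilobase of a gene and corrected for library size). Gene reads numbered 9472317 to 10466096 per library at 58 nm, 10039379 to 10469143 at 35 nm and 10039422 to 10678269 in Control, and 3 reads on 1 kb of gene length equal 0.274 to 0.313 FPKM. Of 10 endothelial markers, 5 reached a mean of 1 FPKM, and KDR, TEK, CLDN5 and EMCN averaged under 0.3 FPKM. Fibroblast markers (COL1A1, COL1A2, DCN and LUM, of which 3 of 4 reached a mean of 1 FPKM) summed to 262 to 278 FPKM at 58 nm, 271 to 288 FPKM at 35 nm and 234 to 256 FPKM in Control. COL1A1 (157 ± 7.53 FPKM at 35 nm and 129 ± 8.06 FPKM in Control) made up most of that difference, and the groups overlapped in DCN and LUM. Epithelial markers (EPCAM, CDH1, KRT8 and KRT18) summed to 44.9 to 53.3 FPKM at 58 nm, 40.1 to 47.9 FPKM at 35 nm and 50.95 to 54.4 FPKM in Control. KRT18 made up most of that sum (43.0 ± 3.51 FPKM at 58 nm, 39.9 ± 2.72 FPKM at 35 nm and 49.2 ± 1.32 FPKM in Control). KRT8 was higher in every 58 nm library than in every Control library, and its 35 nm and Control libraries overlapped. CDH1 was 0 in every library, and EPCAM averaged under 0.3 FPKM. Of the pericyte markers, PDGFRB was lower and CSPG4 higher in every 35 nm library than in every Control library. The part of these markers in the results was not tested. Leukocyte markers summed to at most 0.143 FPKM in any library. Libraries also differed in base composition. Across genes, the Spearman correlation between GC content and a library's deviation from the mean of all 12 libraries was 0.151 to 0.555 at 35 nm and -0.457 to -0.231 in Control. At 58 nm it was 0.358 in library 1, which stood apart, and -0.296 to -0.0936 in the other three.

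The DNA letters through which this response is known to act were read from RefSeq promoters (GRCh38.p14, 250 bases before to 50 bases after the annotated start), which were found for 44 of the 49 genes. The ER stress element was searched on both strands as CCAAT, 9 bases of any kind and CCACG. It stood in 8 of these 44 genes (18.2%), against 0.184% of 8687 tested genes with a promoter and 0.092% of all 27305 genes in the table. The tested genes with the element numbered 16, and these 8 were among them. The 8 genes were HSPA5, HSP90B1 (which held 2), CALR, CANX, CRELD2, PDIA6, ERO1B and XBP1. The ER stress element II was searched as ATTGG, 1 base and CCACG. It stood in HYOU1 (which held 2), SDF2L1 and HERPUD1, that is in 6.82% of the 44 genes against 0.15% of the tested ones. The unfolded protein response element TGACGTGG stood in HYOU1, DNAJC10, TXNDC5 and TXNDC11 (9.09% against 1.17%), and in HYOU1 it overlapped an ER stress element II. The amino acid response element TGATGCAAT, which is known from targets of ATF4, was found in 0 of the 44 promoters, against 0.15% of tested genes and 0.293% of all. These matches describe letters in a window and do not show that a factor was bound. The 49 genes were picked as genes of this response, and the elements are known from the same response. A higher share among them is therefore no separate evidence.

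The stretches below show the matched elements in 8 of these promoters, in capitals with up to 8 flanking bases in lower case, each on the strand of its gene in GRCh38.p14. They are the stretches that overlap no annotated exon. Those of HSP90B1, CANX and XBP1, which did not pass the test at 35 nm, overlap exons and are not shown. Of the genes shown, HSPA5, CALR, CRELD2, HYOU1, SDF2L1 and PDIA6 rose at 35 nm. ERO1B, with an ER stress element, and HERPUD1, with an ER stress element II, did not pass the test.
HSPA5, chr9:125241383-125241417, minus strand: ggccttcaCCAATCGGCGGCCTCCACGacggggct
CALR, chr19:12938376-12938410, plus strand: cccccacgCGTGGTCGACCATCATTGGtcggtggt
CRELD2, chr22:49918546-49918580, plus strand: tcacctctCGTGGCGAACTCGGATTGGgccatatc
PDIA6, chr2:10812845-10812879, minus strand: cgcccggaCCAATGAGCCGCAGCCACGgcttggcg
ERO1B, chr1:236282175-236282208, minus strand: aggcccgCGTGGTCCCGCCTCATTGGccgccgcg
HYOU1, chr11:119057266-119057398, minus strand: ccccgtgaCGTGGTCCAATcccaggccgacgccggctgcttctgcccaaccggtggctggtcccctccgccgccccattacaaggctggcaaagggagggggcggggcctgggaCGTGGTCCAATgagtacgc
SDF2L1, chr22:21642106-21642132, plus strand: ctcggaagCGTGGACCAATcaaaaccc
HERPUD1, chr16:56932017-56932043, plus strand: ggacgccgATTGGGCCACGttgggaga

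HSPA5 and PDIA6 carry the element in the order CCAAT then CCACG along the gene's own strand, and CALR, CRELD2 and ERO1B carry it reversed, so that CGTGG comes first. Of these 5 genes, the element lay nearest to the start in HSPA5 (48 to 66 bases before it) and farthest in ERO1B (225 to 243 bases before it). In XBP1, whose stretch is not shown, it lay 34 to 52 bases before the start. In HYOU1 the 2 copies lay within 69 to 185 bases before the start.

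The first comparison asks which of the 49 genes differed between cells given 35 nm particles and untreated cells. At 35 nm, 15 of the 49 genes (30.6%) rose, against 20.2% of the 12176 genes tested, and 3 (6.12%) fell, against 15.2%. With upper-quartile rescaling the calls over all genes split otherwise, with 44.7% of them higher in place of 57.1%. Then 11 of the 49 rose and 4 fell, beside 1955 and 2419 of all genes tested. The median log2 difference was 0.06 over the 49 genes and 0.00 over all genes tested. Together the 49 genes took 0.827 ± 0.0111% of gene reads at 35 nm and 0.764 ± 0.0043% in Control (SD, n = 4 libraries each). The lowest 35 nm library (0.811%) lay above the highest Control library (0.768%). By role, chaperones took 0.3564% at 35 nm and 0.3095% in Control, isomerases 0.1735% and 0.1621%, and translocation genes 0.07397% and 0.0679%. Sensors and transducers (0.1293% and 0.1308%) and ERAD genes (0.09336% and 0.09401%) did not share in the rise. In RNA from whole cultures, more RNA per cell and more cells that carry it cannot be told apart. The rises lay among chaperones (6 of 15), isomerases (6 of 11) and translocation genes (2 of 3), whereas 1 of 10 ERAD genes rose, and 2 of the 10 sensors and transducers fell.

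**Figure D1:**
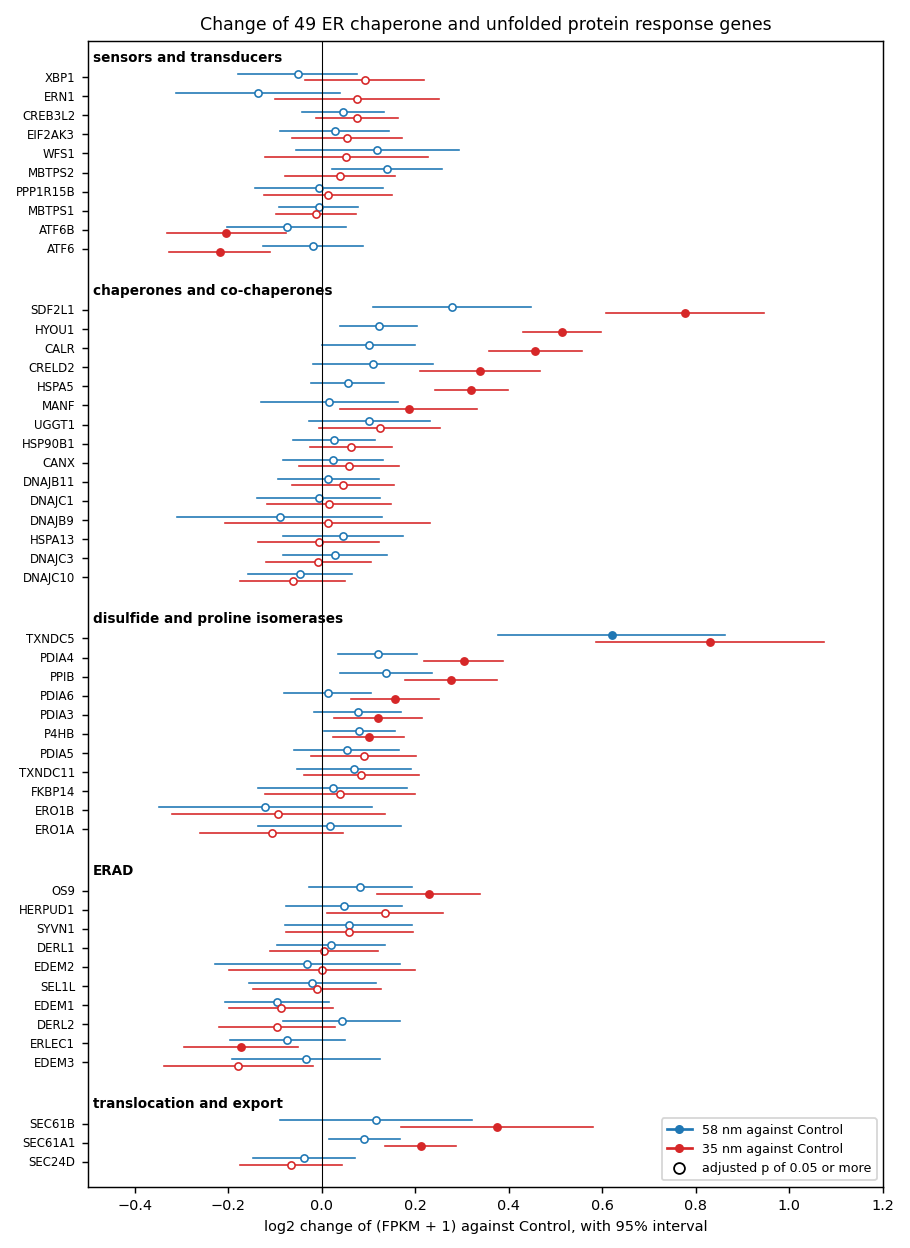
Difference in log2(FPKM + 1) of each of the 49 genes, as 58 nm minus Control (blue) and 35 nm minus Control (red), with the 95% interval, grouped by role. Filled points have an adjusted p under 0.05: 15 red points lie to the right of 0 and 3 to the left, and TXNDC5 alone is filled in blue.

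HSPA5 (BiP) is the main ER HSP70 and also holds the sensors inactive. It measured 121, 126, 122 and 129 FPKM in 58 nm libraries 1 to 4, 144, 150.3, 156 and 149 FPKM in 35 nm libraries and 116, 122, 119.9 and 122 FPKM in Control libraries. Every 35 nm library lay above every library of the other groups, and 58 nm and Control libraries overlapped. The 35 nm to Control log2 difference of HSPA5 was 0.32 (SE 0.04, adjusted p = 3.7e-05), and it was 0.17 (adjusted p = 0.0161) after quantile normalization.

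HYOU1 is a large relative of HSP70 that exchanges the nucleotide of HSPA5. Its level was 18.0, 18.8, 18.3 and 17.5 FPKM at 58 nm, 23.2, 24.5, 24.9 and 23.9 FPKM at 35 nm and 16.1, 16.9, 16.6 and 16.8 FPKM in Control. The 3 groups did not overlap, with 58 nm between the other two. The log2 difference of 35 nm from Control was 0.51 (SE 0.04, adjusted p = 1.08e-06). SDF2L1, a partner of HSPA5 that keeps clients from aggregating, showed a larger difference. It had 17.4, 19.0, 20.3 and 20.7 FPKM at 58 nm, 28.6, 28.5, 28.9 and 24.7 FPKM at 35 nm and 15.1, 13.8, 16.2 and 18.0 FPKM in Control. All 35 nm libraries exceeded the rest, though library 4 lay below the other three of its group, and 58 nm and Control libraries overlapped. The log2 difference of SDF2L1 at 35 nm from Control was 0.78 (SE 0.08, adjusted p = 1.47e-05).

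CALR, the soluble lectin chaperone calreticulin, which also stores calcium, had the highest level of the 49 genes. Its values were 279, 283, 279 and 266 FPKM at 58 nm, 352, 339.6, 384 and 343 FPKM at 35 nm and 253, 252, 252 and 276 FPKM in Control. The 35 nm libraries stood clear of both other groups, and Control library 4 lay above the other three Control libraries, within the 58 nm range. The 35 nm log2 difference of CALR from Control was 0.46 (SE 0.05, adjusted p = 1.39e-05), and 0.25 (adjusted p = 0.000532) after quantile normalization.

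CRELD2, an ER protein that is also secreted and is known to rise under ER stress, had 5.98, 6.01, 5.64 and 5.44 FPKM at 58 nm, 7.27, 6.70, 7.06 and 6.66 FPKM at 35 nm and 5.04, 4.99, 5.11 and 5.97 FPKM in Control. Here too the 35 nm libraries lay above all others, with a log2 difference from Control of 0.34 (SE 0.06, adjusted p = 0.000898). MANF, a small ER protein that binds HSPA5, averaged 17.1 ± 1.96 FPKM at 58 nm, 19.3 ± 0.844 FPKM at 35 nm and 16.8 ± 0.668 FPKM in Control. Its log2 difference of 0.19 between 35 nm and Control passed the test narrowly (adjusted p = 0.0473) and was called in 6 of 23 alternatives. Leaving out any 1 of the 35 nm or Control libraries ended the call of MANF, with an adjusted p of 0.123 without 35 nm library 3.

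The other 9 chaperones did not pass the test. HSP90B1 (GRP94), the ER HSP90, had 103, 106, 107 and 110.2 FPKM at 58 nm, 103, 108, 112 and 115 FPKM at 35 nm and 101, 106, 107 and 104 FPKM in Control. The groups overlapped, and the 35 nm log2 difference from Control was 0.06 (95% interval -0.03 to 0.15, adjusted p = 0.255). The promoter of HSP90B1 held 2 ER stress elements. DNAJB9 (ERdj4), a co-chaperone and known target of spliced XBP1, had 8.05, 7.79, 7.24 and 9.56 FPKM at 58 nm, 10.6, 8.12, 7.57 and 9.13 FPKM at 35 nm and 8.40, 9.22, 9.70 and 7.64 FPKM in Control. These groups overlapped as well, with a 35 nm log2 difference from Control of 0.01 (95% interval -0.21 to 0.23, adjusted p = 0.937). CANX, the membrane-bound lectin chaperone calnexin, averaged 88.6 ± 5.02 FPKM at 58 nm, 90.8 ± 5.02 FPKM at 35 nm and 87.0 ± 2.91 FPKM in Control. UGGT1, the folding sensor that returns glycoproteins to these lectins, showed a 35 nm log2 difference from Control of 0.12 (adjusted p = 0.125). The HSP40 co-chaperones DNAJB11, DNAJC1, DNAJC3 and DNAJC10 and the HSP70-like HSPA13 had log2 differences between -0.06 and 0.05 in the same comparison. In DNAJC10, a disulfide reductase as well as a co-chaperone, all 35 nm libraries lay below all Control libraries (adjusted p = 0.376).

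**Figure D2:**
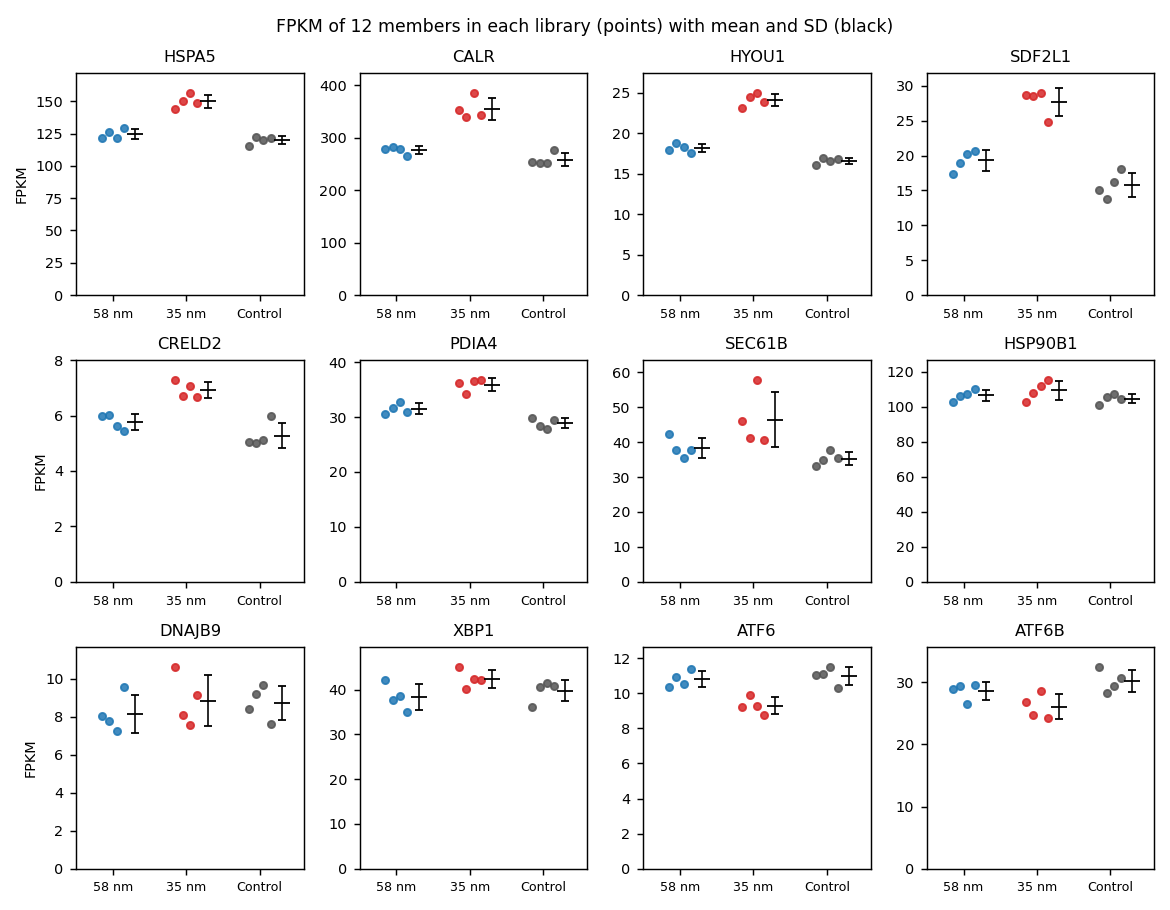
FPKM of 12 of the 49 genes in each library (points), with the group mean and SD (black) beside them, for 58 nm, 35 nm and Control. In HSPA5, CALR, HYOU1, SDF2L1, CRELD2 and PDIA4 the 4 libraries at 35 nm lie above all others, in HSP90B1, DNAJB9 and XBP1 the groups overlap, and in ATF6 the 35 nm libraries lie lowest.

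The isomerases rose in 6 of 11 cases at 35 nm, 2 of which (P4HB and PDIA3) turned below 0 after quantile normalization. PDIA4 (ERp72), a disulfide isomerase found in chaperone complexes with HSPA5, had 30.6, 31.7, 32.8 and 30.9 FPKM at 58 nm, 36.2, 34.2, 36.5 and 36.7 FPKM at 35 nm and 29.9, 28.4, 27.8 and 29.5 FPKM in Control. The 3 groups were fully separated, and the 35 nm log2 difference from Control was 0.30 (SE 0.04, adjusted p = 8.86e-05), or 0.20 (adjusted p = 0.00295) once length and GC trends were removed.

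PPIB, cyclophilin B, a proline isomerase, averaged 51.5 ± 2.36 FPKM at 58 nm, 56.9 ± 3.08 FPKM at 35 nm and 46.8 ± 1.35 FPKM in Control. All 35 nm libraries of PPIB but 1 exceeded the highest 58 nm library, and all exceeded Control, with a log2 difference from Control of 0.28 (adjusted p = 0.000576) that became 0.15 (adjusted p = 0.00418) without length and GC trends. PDIA6 (P5), which is known to act on ERN1, averaged 44.3 ± 1.57 FPKM at 58 nm, 49.1 ± 1.85 FPKM at 35 nm and 43.9 ± 1.98 FPKM in Control. Its 35 nm log2 difference from Control was 0.16 (adjusted p = 0.0133), and 0.04 (adjusted p = 0.581) after quantile normalization. Strand was not given in the sources used here, and PPIB shares 27.2% of its exon bases with SNX22 and PDIA6 shares 25.2% with ATP6V1C2 on the other strand, so reads of these pairs cannot be told apart.

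PDIA3 (ERp57), the isomerase that works with CALR and CANX, and P4HB, protein disulfide isomerase itself, rose by the least. PDIA3 averaged 83.5 ± 2.34 FPKM at 58 nm, 86.1 ± 3.35 FPKM at 35 nm and 79.2 ± 4.09 FPKM in Control, with overlapping groups and a 35 nm log2 difference from Control of 0.12 (adjusted p = 0.0448). P4HB averaged 116 ± 2.03 FPKM at 58 nm, 118 ± 5.23 FPKM at 35 nm and 109.5 ± 0.512 FPKM in Control, with a 35 nm log2 difference from Control of 0.10 (adjusted p = 0.0409). Quantile normalization gave log2 differences of -0.02 for both, and removing length and GC trends gave -0.03 for P4HB. The call was kept in 9 of 23 alternatives for PDIA3 and in 8 of 23 for P4HB, and leaving out Control library 1 ended both (adjusted p = 0.127 for PDIA3 and 0.0681 for P4HB).

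TXNDC5 (ERp46) had the largest difference from Control of the 49 genes at both particle sizes and is described here after its values were seen. It measured 3.47, 4.77, 3.46 and 3.28 FPKM at 58 nm, 5.33, 4.32, 4.56 and 3.72 FPKM at 35 nm and 2.56, 1.94, 1.99 and 1.82 FPKM in Control. Every library of both particle groups lay above every Control library, while 58 nm and 35 nm overlapped. The log2 difference from Control was 0.62 at 58 nm (SE 0.11, adjusted p = 0.0078) and 0.83 at 35 nm (SE 0.11, adjusted p = 0.000141). TXNDC5 remained called in all 22 alternatives that tested it in both comparisons with Control. The value is uncertain, because 60.6% of its exon bases are shared with the read-through gene BLOC1S5-TXNDC5, which is listed at 0 in 11 of 12 libraries. PDIA5, TXNDC11, the oxidases ERO1A and ERO1B, which pass electrons from the isomerases to oxygen, and the collagen folding factor FKBP14 had 35 nm log2 differences from Control between -0.11 and 0.09 and did not pass the test.

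Of the 10 sensors and transducers, 2 fell and 0 rose, with 0 higher also at an unadjusted p under 0.05 in limma (24.7% of all genes) and after adjustment in limma-voom. ATF6 had 10.4, 10.9, 10.5 and 11.4 FPKM at 58 nm, 9.23, 9.89, 9.30 and 8.76 FPKM at 35 nm and 11.0, 11.1, 11.5 and 10.3 FPKM in Control. All 35 nm libraries lay below all libraries of the other groups, and the 35 nm log2 difference of ATF6 from Control was -0.22 (SE 0.05, adjusted p = 0.0046). That difference was -0.10 (adjusted p = 0.119) once length and GC trends were removed. ATF6B, its paralogue, averaged 28.6 ± 1.43 FPKM at 58 nm, 26.1 ± 2.00 FPKM at 35 nm and 30.1 ± 1.78 FPKM in Control. The 35 nm and Control libraries of ATF6B overlapped, and the log2 difference was -0.20 (SE 0.06, adjusted p = 0.0168), -0.17 (adjusted p = 0.0520) without Control library 1 and -0.35 (adjusted p = 0.000225) once length and GC trends were removed. Both genes code for precursors whose cleavage is not seen in RNA.

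ERN1 was scarce, with 1.18, 1.23, 1.31 and 1.12 FPKM at 58 nm, 1.38, 1.67, 1.52 and 1.68 FPKM at 35 nm and 1.47, 1.46, 1.54 and 1.24 FPKM in Control. Its 35 nm and Control libraries overlapped (log2 difference 0.08, adjusted p = 0.501), and its 58 nm libraries lay below all 35 nm libraries. XBP1 had 42.1, 37.6, 38.6 and 35.0 FPKM at 58 nm, 45.0, 40.1, 42.4 and 42.2 FPKM at 35 nm and 36.2, 40.6, 41.4 and 40.8 FPKM in Control, spliced and unspliced forms together. All 3 groups of XBP1 overlapped, with a 35 nm log2 difference from Control of 0.09 (95% interval -0.03 to 0.22, adjusted p = 0.245).

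EIF2AK3 had 6.41, 6.17, 5.98 and 6.29 FPKM at 58 nm, 6.13, 5.95, 7.10 and 6.28 FPKM at 35 nm and 6.11, 6.09, 5.83 and 6.29 FPKM in Control, again with overlap and a 35 nm log2 difference from Control of 0.05 (adjusted p = 0.464). PPP1R15B, the constitutive phosphatase subunit that reverses PERK signalling, had 18.4, 19.7, 20.1 and 21.4 FPKM at 58 nm, 20.4, 20.8, 18.4 and 21.0 FPKM at 35 nm and 17.9, 20.6, 21.7 and 19.8 FPKM in Control, with a 35 nm log2 difference from Control of 0.01 (adjusted p = 0.888). The proteases MBTPS1 and MBTPS2, which cleave ATF6, the related factor CREB3L2 and the membrane protein WFS1 had 35 nm log2 differences between -0.01 and 0.08. CREB3L2 was higher in every 35 nm library than in any Control library and still missed the threshold (adjusted p = 0.166).

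Of the 10 ERAD genes, 1 rose, 1 fell and 8 did not pass the test at 35 nm. The gene that rose was OS9, a lectin that hands misfolded glycoproteins to the SEL1L ligase. It averaged 40.1 ± 2.44 FPKM at 58 nm, 44.5 ± 1.40 FPKM at 35 nm and 37.8 ± 2.27 FPKM in Control, with a 35 nm log2 difference from Control of 0.23 (adjusted p = 0.00393) that was 0.13 (adjusted p = 0.0469) after quantile normalization. ERLEC1 (XTP3-B), the other lectin of that ligase, averaged 28.1 ± 1.29 FPKM at 58 nm, 26.2 ± 2.01 FPKM at 35 nm and 29.7 ± 1.52 FPKM in Control. The 35 nm and Control libraries of ERLEC1 overlapped, and its log2 difference of -0.17 (adjusted p = 0.031) was called in 14 of 23 alternatives. It was lost without Control library 3 (adjusted p = 0.0767) or 4 (0.0882) and without 35 nm library 1 (0.0656), 3 (0.0913) or 4 (0.0503).

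HERPUD1, a scaffold of the ligase and a known target of the response, had 9.79, 9.66, 9.77 and 10.6 FPKM at 58 nm, 11.4, 10.6, 10.6 and 9.90 FPKM at 35 nm and 8.93, 9.05, 10.3 and 10.1 FPKM in Control. The groups overlapped, and the 35 nm log2 difference from Control was 0.14 (adjusted p = 0.0854). SEL1L, which anchors the ligase, had 14.0, 16.4, 16.5 and 16.5 FPKM at 58 nm, 15.3, 16.4, 14.7 and 17.6 FPKM at 35 nm and 15.6, 16.5, 16.7 and 15.4 FPKM in Control, a 35 nm log2 difference of -0.01 (adjusted p = 0.926). EDEM1, which trims mannose from proteins bound for degradation, had 14.1, 14.8, 15.1 and 15.5 FPKM at 58 nm, 15.5, 15.4, 13.4 and 15.7 FPKM at 35 nm and 16.5, 15.9, 15.9 and 15.6 FPKM in Control, a 35 nm log2 difference of -0.09 (adjusted p = 0.21). Thus the groups of SEL1L overlapped, while 2 of the 35 nm libraries of EDEM1 lay just below the lowest Control library, 1 clearly below and 1 within the Control range. The ligase SYVN1 (HRD1), the channel proteins DERL1 and DERL2 and the mannosidase-like EDEM2 and EDEM3 had 35 nm log2 differences from Control between -0.18 (EDEM3, adjusted p = 0.0763) and 0.06 (SYVN1). EDEM3 passed when Control library 4 (-0.22, adjusted p = 0.0409), 35 nm library 2 (-0.22, adjusted p = 0.0494) or 58 nm library 1 (-0.18, adjusted p = 0.0268) was left out.

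SEC61A1 and SEC61B, subunits of the channel through which new proteins enter the ER, both rose at 35 nm. SEC61A1 averaged 96.8 ± 1.40 FPKM at 58 nm, 105 ± 3.50 FPKM at 35 nm and 90.9 ± 2.91 FPKM in Control, a 35 nm log2 difference of 0.21 (adjusted p = 0.000613) that was 0.07 (adjusted p = 0.184) after quantile normalization. SEC61B had 42.4, 37.7, 35.4 and 37.8 FPKM at 58 nm, 46.1, 41.3, 57.7 and 40.6 FPKM at 35 nm and 33.1, 34.9, 37.8 and 35.4 FPKM in Control. All 35 nm libraries of SEC61B exceeded all Control libraries, and library 3 at 35 nm was far above the other three. The log2 difference was 0.37 (SE 0.09, adjusted p = 0.00884) with it and 0.27 (adjusted p = 0.0102) without it. SEC24D, a coat protein of vesicles that leave the ER, had a 35 nm log2 difference from Control of -0.06 (adjusted p = 0.346).

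**Figure D3:**
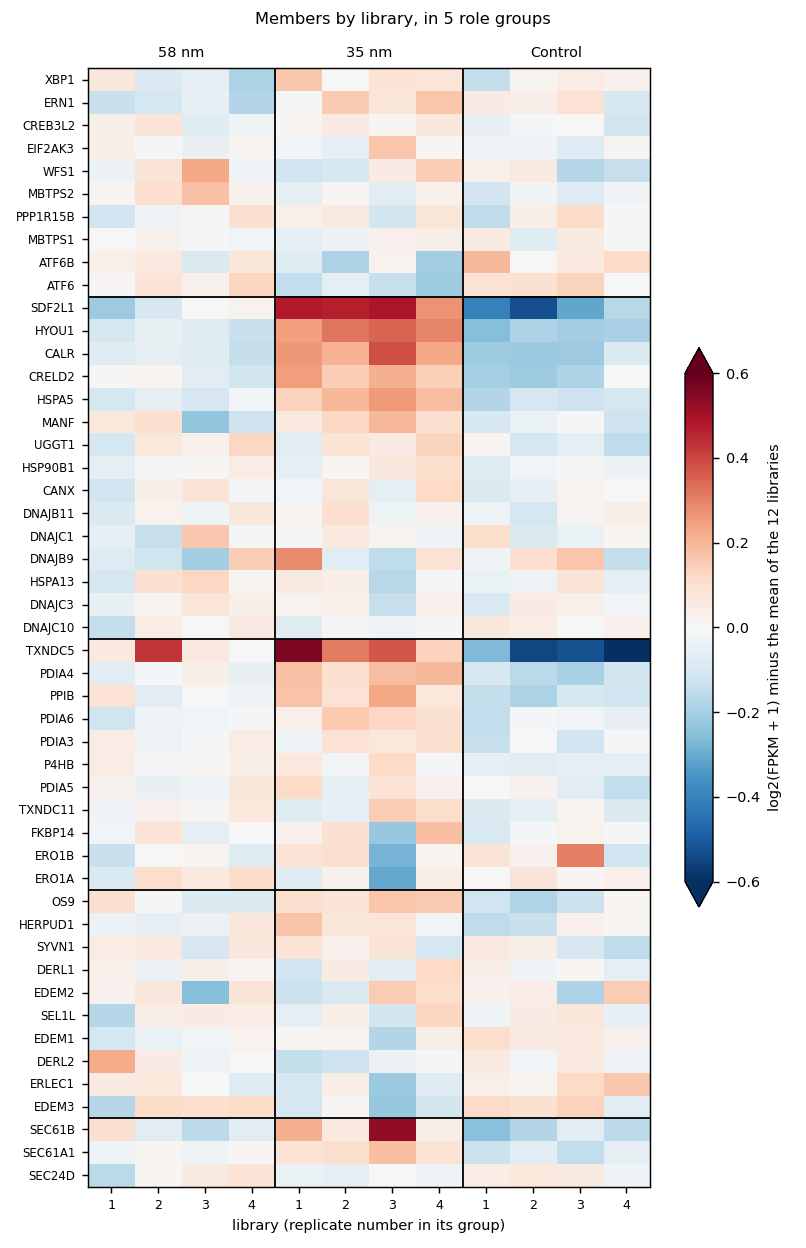
Level of each of the 49 genes in each library as log2(FPKM + 1) minus its mean over the 12 libraries (red above, blue below), with 58 nm, 35 nm and Control libraries side by side and the 5 role groups separated by lines. SDF2L1, HYOU1, CALR, CRELD2 and HSPA5 are red in all 4 libraries at 35 nm, and most ERAD genes and sensors are pale in every group.

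The genes that rose at 35 nm were richer in G and C than the rest. The 15 that rose had a median GC content of 53.0% (43.8% to 65.5%), the 3 that fell 41.3% (41.1% to 57.7%) and the 31 that did not pass 43.1% (34.9% to 59.5%), against 48.1% over all genes tested. As given above, the deviations of all 35 nm libraries rose with GC content and those of all Control libraries fell with it. With length and GC trends removed from each library, 13 of the 15 rises remained (MANF and P4HB did not), and 23 of the 49 genes rose in all. Over all 12176 genes tested, 1886 rose and 1419 fell under that setting, in place of 2463 and 1852. The 10 genes gained were MBTPS2, HSP90B1, CANX, UGGT1, DNAJB11, DNAJC3, DNAJC10, HSPA13, FKBP14 and SEL1L, with a GC content of 34.9% (HSPA13) to 44.7% (UGGT1). Of the 3 falls, ATF6B remained. The median log2 difference of the 49 genes was then 0.11, so the count of rises depended on how base composition was treated, while those of HSPA5, HYOU1, SDF2L1, CALR, CRELD2, PDIA4, PPIB, OS9 and SEC61B were called in all 23 alternatives and that of TXNDC5 in all 22 that tested it.

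**Figure D4:**
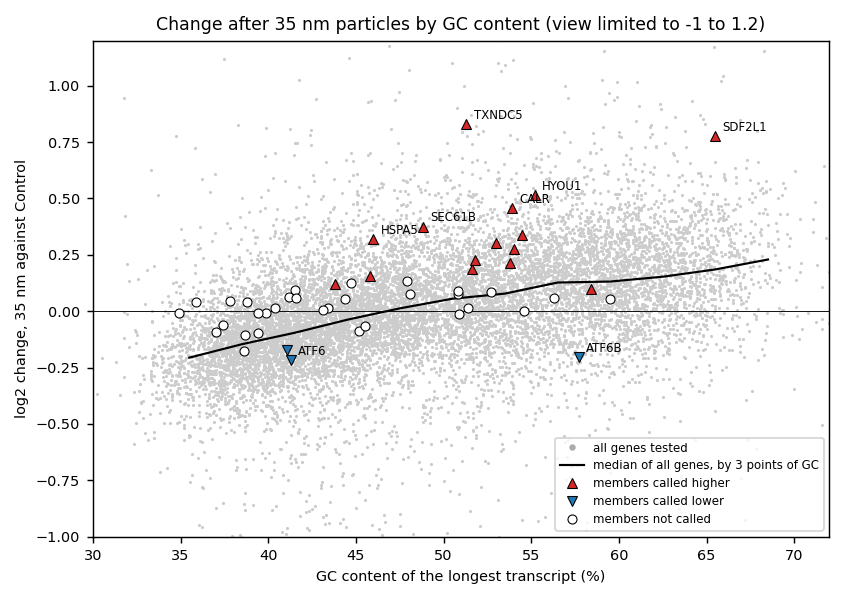
Log2 difference between 35 nm and Control against the GC content of each gene's longest transcript, for all genes tested (grey), the 15 of the 49 genes that rose (red triangles), the 3 that fell (blue triangles) and the 31 that did not pass (open circles); the line is the median over all genes by GC. The grey median climbs with GC, and HSPA5, CALR, HYOU1, SDF2L1, SEC61B and TXNDC5 lie above it.

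By promoter, 4 of the 8 genes with an ER stress element rose at 35 nm, where 20.2% of all genes tested rose, with a median log2 difference from Control of 0.12. Of the 3 genes with an ER stress element II, 2 rose (HYOU1 and SDF2L1), with a median of 0.51. Of the 33 genes with a promoter and neither element, 8 rose and 3 fell, with a median of 0.05. These are counts of few genes and carry no test. The elements thus stood in some genes with large differences and also in HSP90B1, CANX, XBP1, ERO1B and HERPUD1, which did not pass. TXNDC5, with the largest difference (0.83), and SEC61B (0.37) held neither element.

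**Figure D5:**
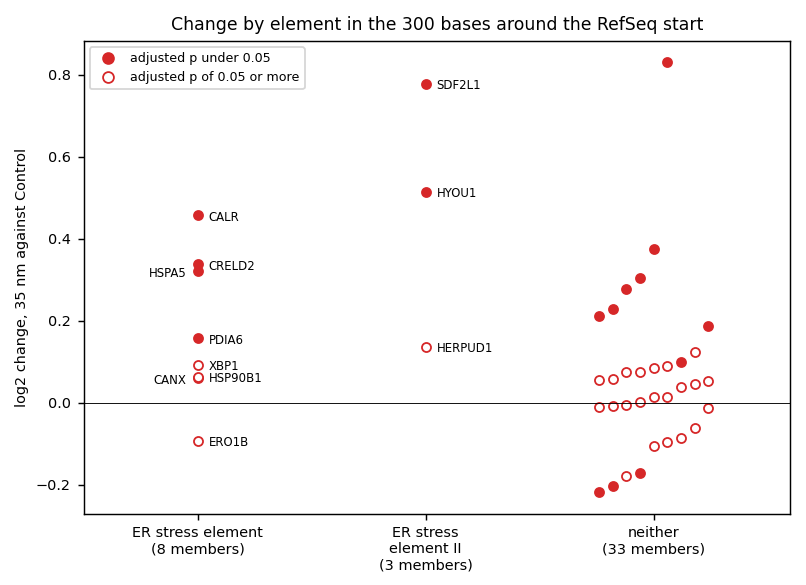
Log2 difference between 35 nm and Control for the 44 genes with a RefSeq promoter, split by the element found in the 300 bases around the start. CALR, CRELD2, HSPA5 and PDIA6 are the filled points (adjusted p under 0.05) among 8 genes with an ER stress element, and SDF2L1 and HYOU1 among 3 genes with an ER stress element II. TXNDC5, the highest point (0.83), is among the genes with neither.

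The second comparison asks the same of 58 nm particles. At 58 nm, TXNDC5 alone rose of the 49 genes (2.04%), against 2.18% of all genes tested, and 0 fell, against 1.95%. Quantile normalization moved the split over all genes to 42.2% of calls higher, in place of 52.7%. At an unadjusted p under 0.05, limma found 9 of the 49 higher and 0 lower, beside 11.9% and 8.16% of all genes at that same threshold, and limma-voom on recovered reads called 1 higher and 0 lower after adjustment. The 49 genes took 0.786 ± 0.0108% of gene reads at 58 nm, against 0.764 ± 0.0043% in Control. The lowest 58 nm library (0.771%) lay above the highest Control library (0.768%). By role, chaperones took 0.3203% at 58 nm and 0.3095% in Control, isomerases 0.1699% and 0.1621%, and translocation genes 0.07031% and 0.0679%. Sensors and transducers took 0.131% and 0.1308%, and ERAD genes 0.09404% and 0.09401%.

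Some chaperones lay slightly above Control at 58 nm without passing the test. HYOU1 was higher in all 58 nm libraries than in any Control library, with a log2 difference of 0.12 (95% interval 0.04 to 0.20, adjusted p = 0.0974). SDF2L1 differed by 0.28 on the log2 scale (95% interval 0.11 to 0.45, adjusted p = 0.0668). It passed without Control library 4 (0.34, adjusted p = 0.0349) and without 58 nm library 1 (0.33, adjusted p = 0.0477). CALR differed by 0.10 (95% interval 0.0014 to 0.20, adjusted p = 0.244) and HSPA5 by 0.06 (95% interval -0.02 to 0.13, adjusted p = 0.427), both as log2 differences from Control. PDIA4 and PPIB had log2 differences of 0.12 (adjusted p = 0.106) and 0.14 (adjusted p = 0.114). These intervals, which are not adjusted for the number of genes, include small increases and do not show that the levels were equal.

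Among sensors, ATF6 differed from Control at 58 nm by -0.02 on the log2 scale (95% interval -0.13 to 0.09, adjusted p = 0.878), ERN1 by -0.14 (adjusted p = 0.377) and XBP1 by -0.05 (adjusted p = 0.676). MBTPS2, the protease that makes the second cut in ATF6, had 4.54, 4.87, 5.18 and 4.57 FPKM at 58 nm, 4.26, 4.53, 4.22 and 4.59 FPKM at 35 nm and 4.05, 4.38, 4.18 and 4.40 FPKM in Control. Its 58 nm libraries all lay above its Control libraries, with a log2 difference of 0.14 (adjusted p = 0.177). That difference was 0.23 (adjusted p = 0.0279) once length and GC trends were removed and missed the threshold when a replicate block was added (adjusted p = 0.067). For ERAD, the 58 nm log2 differences from Control ran from -0.10 (EDEM1) to 0.08 (OS9), and their median was 0.00.

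The third comparison tests whether the 2 particle sizes differed at the same mass dose. At 58 nm, 8 of the 49 genes (16.3%) were lower than at 35 nm, against 7.81% of all genes tested, and 1 (2.04%) was higher, against 3.54%. Of the calls over all genes, 31.2% were higher at 58 nm, a share that was 43.8% after quantile normalization and 48.2% after upper-quartile rescaling. The rescaling left 6 of the 49 genes lower and 1 higher, beside 703 and 655 of all genes tested. The 8 lower genes were the chaperones HSPA5, HYOU1, SDF2L1, CALR and CRELD2, the isomerases PDIA4 and PDIA6 and the channel subunit SEC61A1, all of which had risen at 35 nm against Control. Both comparisons use the same 35 nm libraries, so the values are set side by side and not counted as separate evidence.

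The 58 nm to 35 nm log2 difference was -0.50 for SDF2L1 (SE 0.08, adjusted p = 0.00192), -0.39 for HYOU1 (SE 0.04, adjusted p = 6.96e-05), -0.36 for CALR (SE 0.05, adjusted p = 0.000582) and -0.26 for HSPA5 (SE 0.04, adjusted p = 0.000852). All 4 libraries at 58 nm lay below all 4 at 35 nm in each of these genes, and each was called in all 23 alternatives. For HSPA5, CALR, HYOU1 and SDF2L1, therefore, the difference between the sizes passed the test while that between 58 nm and Control did not. CRELD2 differed by -0.23 (adjusted p = 0.0269, called in 15 of 23 alternatives) and PDIA4 by -0.18 (adjusted p = 0.00978, called in 20 of 23), as log2 differences of 58 nm from 35 nm. PDIA6 (-0.14, adjusted p = 0.0483) and SEC61A1 (-0.12, adjusted p = 0.043) passed narrowly and were called in 7 and 4 of 23 alternatives.

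ATF6 was the gene that was higher at 58 nm than at 35 nm, with a log2 difference of 0.20 (SE 0.05, adjusted p = 0.0223) and groups that did not overlap. It missed the threshold when 35 nm library 1 (0.20, adjusted p = 0.0574), 35 nm library 4 (0.17, adjusted p = 0.0552), 58 nm library 2 (0.19, adjusted p = 0.0551) or 58 nm library 4 (0.18, adjusted p = 0.0752) was left out. The call was also lost with length and GC trends removed (0.14, adjusted p = 0.0774), a setting that called ATF6B higher instead (0.21, adjusted p = 0.0166), and ATF6 was called in 15 of 23 alternatives. Without 58 nm library 1, the library that stood apart in base composition, 10 of the 49 genes were lower and 2 higher at 58 nm, with XBP1 (-0.19, adjusted p = 0.0330), PPIB (-0.17, adjusted p = 0.0208) and OS9 (-0.19, adjusted p = 0.0184) now lower, EDEM3 (0.21, adjusted p = 0.0312) now higher and PDIA6 (-0.12, adjusted p = 0.0685) no longer called. Over all 12176 genes tested, that fit called 1447 lower and 877 higher, in place of 951 and 431. In all it called 2324 genes in place of 1382. For ERAD and the remaining sensors the log2 differences of 58 nm from 35 nm ran from -0.21 (ERN1, adjusted p = 0.107) to 0.14 (EDEM3, adjusted p = 0.221).

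Neighbouring pathways were counted in the same way, in the main fit only. Of 28 genes of the translocon, signal peptidase and oligosaccharyltransferase, 13 (46.4%) rose and 2 (7.14%) fell at 35 nm against Control, beside 20.2% and 15.2% of all genes tested (median log2 difference 0.08). MOGS, the glucosidase that makes the first cut in N-linked sugars, and SSR4, a subunit of the translocon-associated complex, had the largest rises among them, with log2 differences of 0.45 (adjusted p = 1.63e-05) and 0.35 (adjusted p = 0.000774). Of 24 other ER folding factors tested, 10 (41.7%) rose and 2 (8.33%) fell (median 0.13), led by the proline isomerase FKBP2 (0.80, adjusted p = 0.00014) and by CNPY4 (0.46, adjusted p = 0.00148), again as log2 differences of 35 nm from Control. Of 18 other ERAD components tested, 5 (27.8%) rose and 3 (16.7%) fell, shares near those of all genes (median 0.04), led by the ubiquitin-conjugating enzyme UBE2J2 (0.37, adjusted p = 0.00265) and VCP, the ATPase that pulls proteins out of the membrane (0.26, adjusted p = 0.000108). Chaperones outside the ER rose in 12 of 17 cases (70.6%, against 20.2% of all genes, median 0.26). HSPE1 of mitochondria stood at 0.75 (adjusted p = 5.11e-05) and the HSP90 partner FKBP4 at 0.68 (adjusted p = 1.26e-05). The genes named in this paragraph had a GC content of 50.2% (HSPE1) to 63.8% (FKBP2), against 48.1% over all genes tested. Each was called in all 23 alternatives. List counts with length and GC trends removed are not given here.

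Of 10 tested genes of the PERK to ATF4 branch, 4 rose at 35 nm (ATF4, DDIT4, STC2 and CEBPB), with a list median of 0.19. The share that rose was 40%, against 20.2% of all genes tested. ASNS and VLDLR, also on that list, lay under the filter and were not tested. ASNS averaged 0.513 ± 0.0538 FPKM at 58 nm, 0.557 ± 0.112 FPKM at 35 nm and 0.803 ± 0.0859 FPKM in Control. Every library of both particle groups lay below every Control library in ASNS, while the groups overlapped in VLDLR. ATF4 averaged 108 ± 7.78 FPKM at 58 nm, 131 ± 5.84 FPKM at 35 nm and 108 ± 3.43 FPKM in Control, with a 35 nm log2 difference from Control of 0.28 (adjusted p = 0.00113). DDIT4 and CEBPB differed by 0.57 (adjusted p = 0.0177) and 0.36 (adjusted p = 0.0364) on the log2 scale, and missed the threshold without 35 nm library 1 (adjusted p = 0.0512 for DDIT4 and 0.0993 for CEBPB). DDIT4 was called in 22 of 23 alternatives and CEBPB in 11 of 23, with a log2 difference of CEBPB of 0.14 (adjusted p = 0.36) once length and GC trends were removed. DDIT3 (CHOP), the factor tied to cell death under lasting ER stress, pointed the other way. It averaged 6.02 ± 1.22 FPKM at 58 nm, 5.64 ± 0.882 FPKM at 35 nm and 8.05 ± 1.92 FPKM in Control, and its 35 nm log2 difference from Control of -0.43 just missed the threshold (adjusted p = 0.0503) and passed after upper-quartile rescaling (-0.47, adjusted p = 0.0321) and without Control library 1 (-0.51, adjusted p = 0.0342) or 2 (-0.53, adjusted p = 0.0284). DDIT3 was called in 12 of 23 alternatives, with adjusted p from 0.0155 to 0.134. TRIB3 (-0.08, adjusted p = 0.296) and PPP1R15A (GADD34, 0.09, adjusted p = 0.448), both known CHOP pathway genes, did not pass in log2 differences of 35 nm from Control. TRIB3 was called in 2 of 23 alternatives, both with length and GC trends removed, at -0.25 (adjusted p = 0.0022 and, with a replicate block, 0.00416).

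At 58 nm against Control these lists gave few calls after adjustment. ATF3, a stress factor, fell by 0.33 on the log2 scale (adjusted p = 0.0355). VCP rose by 0.15 (adjusted p = 0.0324, and 0.0519 to 0.0922 when 1 of the 58 nm or Control libraries was left out). The mitochondrial chaperone HSPD1 rose by 0.12 (adjusted p = 0.0409). At an unadjusted p under 0.05 in limma, 0 of 10 PERK to ATF4 genes were higher and 6 lower (median log2 difference -0.17). Of 17 chaperones outside the ER, 8 were higher and 1 lower, and of 28 translocon and glycosylation genes 8 and 1. Other ERAD components gave 1 and 1 of 18, and other folding factors 5 and 0 of 24. All genes tested gave 11.9% higher and 8.16% lower at that threshold. Between the sizes, ATF4 was lower at 58 nm than at 35 nm (-0.27, adjusted p = 0.00454), as were CHAC1 (-0.49, adjusted p = 0.0189), STC2 (-0.49, adjusted p = 0.000638) and SESN2 (-0.19, adjusted p = 0.0413), all in log2 differences. Outside the ER, 8 of 17 chaperones (47.1%) were lower at 58 nm than at 35 nm, and so were 5 of 28 translocon and glycosylation genes (17.9%), beside 7.81% of all genes tested. ATF3, HSPD1, CHAC1, STC2 and SESN2 were chosen for mention after their values were seen.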

How the data were processed

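RNA sequencing of 12 libraries of the human cell line hCMEC/D3 was used, 4 each from cells given 58 nm SiNPs, 35 nm SiNPs or no treatment. The authors deposited 1 table of FPKM values for 58735 genes, with the gene length used for each, per the file headers. The submitters' processing notes name Bowtie 0.12.2 and hg19, whereas the identifiers, positions and lengths in the deposited table equal GENCODE release 29 (GRCh38) for 58735 of 58735 genes. Counting tool, strandedness and RNA selection were not given in the sources used here. Multiplying FPKM by length gave whole reads for 100% of values within 0.01 reads. Depth per library is therefore known, and small differences in low genes are limited by counting. The library size behind the FPKM was 101.3% to 102.2% of gene reads at 58 nm, 99.7% to 100.7% at 35 nm and 101.5% to 102.7% in Control. FPKM at 35 nm thus lay slightly higher for the same share of gene reads. At 35 nm against Control, limma-voom on recovered reads lost MANF, PDIA3 and P4HB and gained EDEM3. Dates had replaced 27 gene names, which were restored from their identifiers.

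A filter at a mean of 1 FPKM over all 12 libraries left 12176 genes, among them all 49, and log2(FPKM + 1) was fitted with limma 3.58.1 in R 4.3.3 (3 group means, all 12 libraries, trended and robust prior). P-values are two-sided and adjusted by Benjamini-Hochberg over the 12176 genes, with a threshold of 0.05. Log2 differences are on the log2(FPKM + 1) scale and understate those of low genes. The fit was tested on simulated data. The labels name no batch. Replicate numbers were not taken to pair libraries, since correlations of same-numbered libraries were mixed in sign. Alternatives were pseudocount, filter, scaling, removal of length or GC trends, limma-voom on recovered reads, the 8 libraries compared, a replicate block and leaving out each library.

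The 49 genes, the other lists and the tests were chosen with earlier results of these data known. Genes with values per library were a panel of 15 and the 6 called genes with the largest differences per comparison (mean of at least 5 FPKM, groups not overlapping). TXNDC5 and MBTPS2 were added outside this rule. Promoter letters came from RefSeq (GRCh38.p14). Stretches that overlap annotated exons are not shown.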

Additional observations from a re-analysis of the deposited data

Results flagged for a closer look

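In 147 sets of 4 libraries (49 genes in 3 groups), 13 held a library farther from the others than Dixon's 95% limit allows, where chance gives about 1 in 20. Of the 13, 6 lay in 58 nm, 4 in 35 nm and 3 in Control. At 58 nm, library 1 was low in SEL1L (14.0 FPKM) and EDEM3 (9.73 FPKM), library 2 high in TXNDC5 (4.77 FPKM), library 3 low in SYVN1 (11.7 FPKM) and EDEM2 (10.97 FPKM) and library 4 high in HERPUD1 (10.6 FPKM). At 35 nm, library 3 was low in DNAJC3 (10.3 FPKM) and EDEM1 (13.4 FPKM) and high in SEC61A1 (110.6 FPKM), and library 4 was low in SDF2L1 (24.7 FPKM). In Control, library 1 was low in XBP1 (36.2 FPKM), and library 4 was high in CALR (276 FPKM) and CRELD2 (5.97 FPKM). Library 3 at 35 nm thus held 3 of the 13, and it had the highest correlation of level with GC content among the 12 libraries (0.555). The calls of SDF2L1, CALR and CRELD2 at 35 nm against Control were kept when the library named here was left out.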

How the results depend on the processing

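At 35 nm against Control, 9 of the 15 rises were called under all 23 alternatives, and TXNDC5 under all 22 that tested it. Leaving out 1 library gave 12 to 15 of the 49 genes higher and 2 to 4 lower, a median log2 difference of 0.04 to 0.07 and 3482 to 4682 genes called in all. Without a filter 12 genes were higher and 1 lower, beside 1936 and 1370 of all 29636 genes in that fit. The median was 0.0148 after upper-quartile rescaling and 0.0041 after quantile normalization, which turned P4HB (-0.0227) and PDIA3 (-0.0187) below 0. With length and GC trends removed, 23 genes were higher and 1 lower (median 0.11), beside 1886 and 1419 of all 12176 genes tested. Of the genes called with or without that removal, DNAJC10 (0.15), DNAJC3 (0.11), HSPA13 (0.18), SEL1L (0.15) and P4HB (-0.0262) changed sign. The same removal with a replicate block gave 21 higher and 1 lower (median 0.11), beside 1806 and 1312 of all genes. Among the genes called in either fit, HSPA13 (0.18), SEL1L (0.15) and P4HB (-0.0262) again turned. DNAJC10 and DNAJC3 were not called with the block, and uncalled changes of sign are not listed.

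At 58 nm against Control, leaving out 1 library gave 1 to 2 genes higher and 0 lower, a median of 0.0231 to 0.0436 and 230 to 558 genes called in all. The count of all genes moved most without 58 nm library 2 (270) or 3 (319) and without Control library 2 (266), 3 (230) or 4 (290). Without 58 nm library 1 or Control library 4, 2 of the 49 genes were higher, beside 161 and 133 of all genes. No filter gave 252 genes in all, and upper-quartile rescaling a median of 0.0146. Removal of length and GC trends gave 2 genes higher, beside 235 of all genes, and a median of 0.0557, the same median as with the block.

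Between 58 nm and 35 nm, leaving out 1 library gave 0 to 2 genes higher, 5 to 10 lower, a median of -0.04 to -0.01 and 723 to 2324 genes called in all. The last count was 2324 without 58 nm library 1, 767 and 723 without 58 nm libraries 3 and 4, and 799 and 878 without 35 nm libraries 1 and 3. Of the 49 genes, 5 were lower without 58 nm library 3 or 4 or 35 nm library 3, beside 553, 525 and 626 of all genes. Without 58 nm library 1, 2 were higher, beside 877 of all genes. Without 58 nm library 2 or 4 or 35 nm library 1 or 4, 0 were higher, beside 297, 198, 235 and 408. No filter gave 0 higher, 5 lower and 723 in all. Quantile normalization gave 5 lower, beside 693 of all genes, and a median of 0.0057. Removal of length and GC trends gave 5 lower and a median of -0.0648, with or without the block, beside 734 and 841 of all genes. Fitting only the 8 libraries compared gave 0 higher, beside 243 of all genes. The cause of these shifts was not tested. CRELD2 lost its call without 35 nm library 1 or 3 and without 58 nm library 3 or 4 (adjusted p = 0.0669 to 0.0845).

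Same-numbered libraries correlated at -0.065 to 0.159 in their deviations, which does not settle whether the numbers pair them. Between the sizes, 58 nm libraries 1 (0.159) and 2 (0.0369) correlated best with the 35 nm library of the same number. Libraries 3 (-0.018) and 4 (0.0777) did not, and against Control the best match always bore another number. A replicate block alone gave 14 higher and 2 lower at 35 nm against Control, beside 2425 and 1762 of all 12176 genes tested. It gave 1 and 0 at 58 nm against Control (242 and 211 of all genes) and 1 and 7 between the sizes (382 and 890). With CCACG alone, 32 of the 44 promoters matched, in place of 8 with the full ER stress element. That was 72.7%, against 58.0% of tested genes and 42.1% of all. With 1 mismatch allowed in CCAAT, 10 of the 44 matched (22.7%, against 1.06% of tested genes and 0.707% of all). A log2 difference of 0.1 is near the median standard error of 0.07, so small differences were within reach of the noise.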
